A study of Homo sapiens with 38 samples.

Results

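The comparison described here set MS177-N2 against its vehicle in BT-549, an established human breast cancer cell line of mesenchymal character, after 48 h. MS177-N2 is a control compound in a series on MS177, a degrader (PROTAC) aimed at the histone methyltransferase EZH2. Its members were all 16838 genes of the deposited table, in 4 libraries of the series' 38 samples: 2 of cells given 2.5 uM MS177-N2 and 2 of cells given 0.125% DMSO, all grown with serum and insulin. The labels of MS177-N2, MS177-N1, C24 (an EZH2 inhibitor) and MS177 give the same dose, time and DMSO libraries in BT-549, and 2 further lines, T47D and T47D-TR, also received MS177-N2 and DMSO for 48 h. The labels do not say whether the 2 libraries of a group came from separate cultures, so p-values measure the spread between these libraries, which may be technical.

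A degrader of this kind joins a ligand for its target to a ligand for a ubiquitin ligase, so that the target is tagged and destroyed by the proteasome. EZH2 is the enzyme of the polycomb complex PRC2, which methylates histone H3 and holds developmental genes silent. Control compounds are run beside a degrader to see which transcripts move without its intended action, and BT-549 cells stand for triple-negative breast cancer, in which hormone receptors are absent.

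Summed over listed genes, sequencing gave 32.1 to 40.3 M reads per library. Levels are normalized counts, meaning reads scaled by the authors to the library's depth, and differences are on the deposited log2 scale, which is compressed for genes of low count. The mesenchymal markers VIM, CDH2, ZEB1, SPARC and FN1 were all present (summed level 119878 to 122957 with DMSO, 136838 to 140368 with MS177-N2). Of the 10 luminal markers, ESR1, PGR, EPCAM and ESRP1 had no row and 6 were listed. FOXA1 stood at 7.61 to 22.4 counts, but GATA3 at 5740 to 6477 and KRT18 at 17368 to 20612. CDH1 stood at 569 to 716, KRT8 at 344 to 459 and KRT19 at 69.6 to 92.8. No endothelial marker was listed, and CD14 was the only one of 4 leukocyte markers listed. It stood at 29.6 and 9.01 counts with DMSO and 59.8 and 66.5 with MS177-N2, a rise past the threshold (limma adjusted p = 0.0162). The part of the cells that these markers stand for in the results was not tested.

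MS177-N2 changed 491 of 14356 tested genes (3.42%), of which 295 were higher (2.05%) and 196 lower (1.37%; limma on the deposited log2 values, Benjamini-Hochberg adjusted p, threshold 0.05). The median called fall (-0.66) and the median called rise (0.66) were of like size. The falls included ARPIN, TK2, HAPLN3, CELSR2 and SNPH, and the rises APOE, L1CAM, ARSI and collagen genes. At an unadjusted p under 0.05 stood 3196 genes (22.3%), 1646 higher (11.5%) and 1550 lower (10.8%), and the counts of list members below are to be read against these shares. With all 10 BT-549 libraries in 1 fit the count was 100 (47 higher and 53 lower), and 97 of these were among the 491. Without DMSO replicate 1 it was 172, without DMSO replicate 2 it was 1383 and without MS177-N2 replicate 1 it was 121. Of the 491 genes, 59 (31 lower and 28 higher) passed in every alternative fit with planned settings. In bulk RNA a lower level per cell and fewer cells expressing a gene cannot be told apart.

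**Figure D1:**
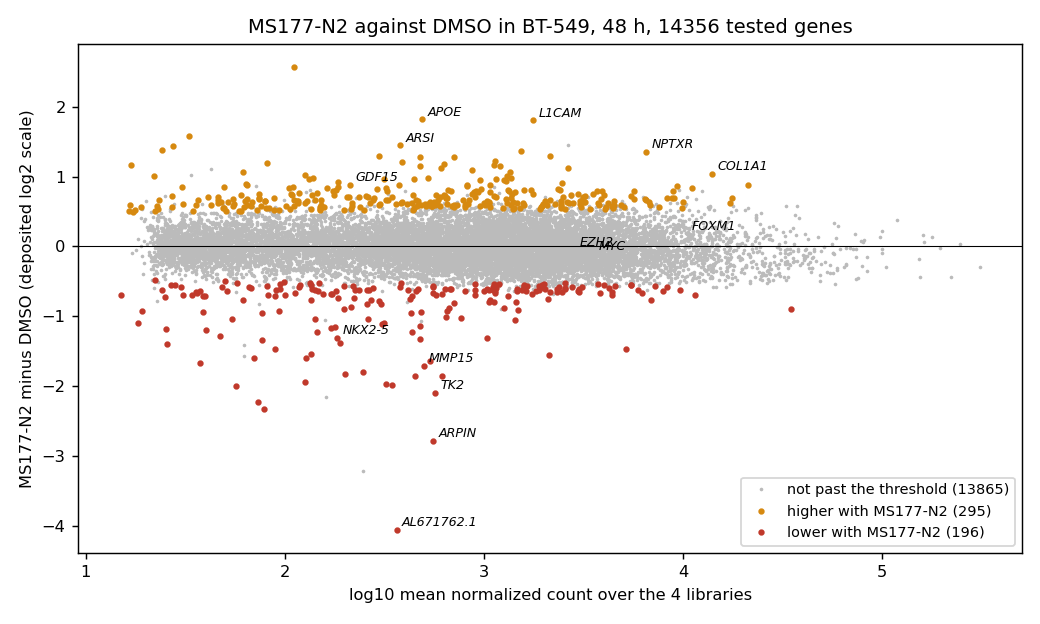
Difference between MS177-N2 and DMSO on the deposited log2 scale (vertical axis) against the log10 mean normalized count over the 4 libraries (horizontal axis), 1 point per tested gene, with the 295 higher and 196 lower genes coloured. The most extreme falls reach further from 0 than the most extreme rises, and EZH2, FOXM1 and MYC lie among the grey points near 0.

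Neither EZH2 nor its PRC2 partners passed the test. EZH2 stood at 2799.8 and 2938 normalized counts with DMSO and 2877 and 2699 with MS177-N2, a difference of -0.04 ± 0.14 (95% interval -0.33 to 0.25; limma adjusted p = 0.893). These ranges overlap. Its paralogue EZH1 differed by 0.09 ± 0.14 and SUZ12, the scaffold subunit of PRC2, by -0.12 ± 0.14 (adjusted p = 0.734 and 0.671, limma). EED, which reads the methyl mark, was at 1845 and 1596 counts with DMSO and 1233 and 1255 with MS177-N2 (-0.44 ± 0.14; limma adjusted p = 0.0947), so its groups did not overlap but the test was not passed. FOXM1, a driver of mitotic genes, was at 9317 and 10066 counts with DMSO and 11189.8 and 10925 with MS177-N2 (0.19 ± 0.14; limma adjusted p = 0.442). The growth regulator MYC differed by -0.10 ± 0.14 and CRBN, the substrate receptor of a cullin ligase used by many degraders, by -0.25 ± 0.14 (adjusted p = 0.726 and 0.307, limma).

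Of the 24 tested PRC2 subunits and readers none passed, with 3 at an unadjusted p under 0.05. None of 47 FOXM1 and G2/M genes passed either (7 at an unadjusted p under 0.05, all lower, limma), nor any of 52 S-phase genes (8, of which 7 were lower), beside 10.8% of all genes lower at that p. Their medians, -0.07, -0.11 and -0.07, stood beside -0.01 over all tested genes. CDK1, the mitotic kinase, had the smallest p of the G2/M list (-0.48 ± 0.15; limma adjusted p = 0.0764), and E2F2, an S-phase regulator, that of its list (-0.49 ± 0.14; limma adjusted p = 0.0676).

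Among the 15 largest falls, 10 were protein-coding genes with their own gene model. ARPIN encodes an inhibitor of the Arp2/3 complex, which nucleates branched actin (GRCh38 chromosome 15, 89895006 to 89912956). It was at 978 and 1081 normalized counts with DMSO and 83.7 and 76.3 with MS177-N2, 12.9-fold lower (1029 ± 73.1 against 80.0 ± 5.23, SD, n = 2), a difference of -2.79 ± 0.14 (SE; limma adjusted p = 1.12e-09, and 6.55e-06 with all BT-549 libraries). A readthrough model with AP3S2 overlaps ARPIN on its strand, so reads of the readthrough transcript cannot be told apart with certainty. TK2, the mitochondrial thymidine kinase (chromosome 16, 66508003 to 66552544), went from 974 and 969 to 138 and 188 counts, 5.96-fold lower (-2.10 ± 0.15; limma adjusted p = 9.64e-08). In both genes every MS177-N2 library lay far under every DMSO library.

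SNPH, which encodes syntaphilin, an anchor of mitochondria on microtubules, fell 15.3-fold, from 228 and 246 to 14.1 and 16.9 counts (-1.95 ± 0.13; limma adjusted p = 7.95e-08). Its difference on the compressed scale was smaller than that of ARPIN although its fold was larger, because its counts were lower. Both MS177-N2 libraries of SNPH lay under the 24.3 counts of the filter on low values. SNPH passed that filter only through the DMSO libraries, so its call in this fit carries no weight by itself. HAPLN3, a hyaluronan link protein of the matrix, fell 6.6-fold, from 641 and 553 to 95.7 and 85.2. CELSR2, an adhesion receptor of planar cell polarity, fell 6.78-fold, from 446 and 679 to 95.7 and 70.1. The DMSO libraries of CELSR2 differed more than those of the other 9 genes but did not overlap with MS177-N2.

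ABHD6, a monoacylglycerol lipase, fell 7.46-fold, from 354 and 356 to 40.2 and 55 counts. IKBKE, a kinase of innate immune signalling, fell 6.33-fold, from 384 and 465 to 64.1 and 70.1. MMP15, a membrane-bound matrix metalloproteinase, fell 4.31-fold, from 792 and 826 to 192 and 183. The 2 libraries of each group lay close together in these genes. CCDC28B, a modifier of cilia disease genes, fell 5.11-fold, from 843 and 668 to 118 and 177, and REEP2, which shapes the endoplasmic reticulum, 4.67-fold, from 1060.4 and 959 to 205 and 227. All 10 of these genes also passed with all BT-549 libraries in the fit, with limma adjusted p from 6.55e-06 for ARPIN to 0.0126 for CCDC28B, and whichever library was left out.

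The 5 other large falls are uncertain. AL671762.1, a transcript model on chromosome 6 that runs across HSPA1B and C6orf48, was at 876 and 581 counts with DMSO and 0 in both MS177-N2 libraries, at least 243-fold lower against a floor of 3 reads per library. MS177-N1 libraries stood at 432 and 0 and C24 libraries at 53.3 and 943, so its level also swung between libraries of 1 group. The ribosomal RNA copies RNA5-8SN3, RNA5-8SN1 and 5_8S_rRNA, whose reads can be split between near-identical copies, and the pseudogene ZRSR2P1 were likewise at 0 in both MS177-N2 libraries, from means of 157, 146, 114 and 75 with DMSO. All 5 passed the filter on low values only through the DMSO libraries. None of these 5 passed with all BT-549 libraries in the fit (limma adjusted p = 0.125 to 0.36).

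**Figure D2:**
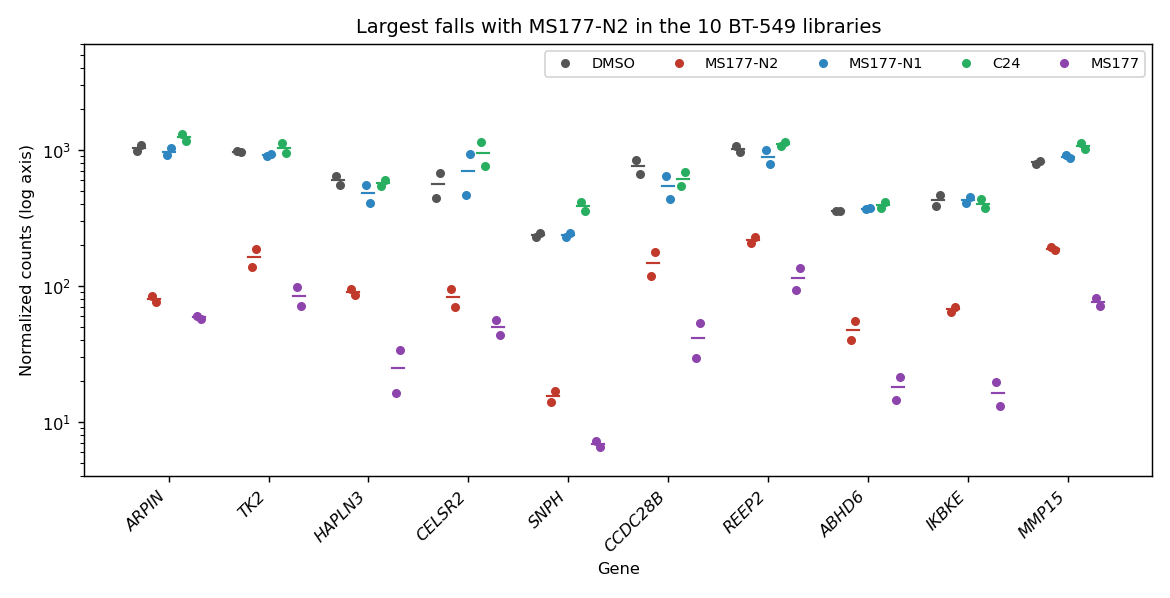
Normalized counts (log axis) of the 10 protein-coding genes among the 15 largest falls in each of the 10 BT-549 libraries. Points are libraries, bars are group means (n = 2). The MS177-N2 and MS177 points lie under those of DMSO, MS177-N1 and C24 in each of the 10 genes.

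The same 10 genes were looked up in the other compounds' libraries, on 1 scale. ARPIN was at 914 and 1024 counts with MS177-N1, 1314 and 1164 with C24 and 60.4 and 56.9 with MS177. IKBKE was at 410.1 and 451, 433 and 372 and 19.8 and 13.1. In each of the 10 genes both MS177 libraries were lower than both MS177-N2 libraries, and all MS177-N1 and C24 libraries were above them, as the plot of counts over the 10 libraries shows.

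Promoter sequences of the falls were then compared, because the 15 largest falls share no single function. RefSeq windows from 250 bases before to 50 after the start (GRCh38.p14) matched 10397 of the 14356 tested genes and 122 of the 196 lower genes. All 2080 words of 6 bases, counted on both strands, were compared in these genes, in 3 sets of calls, together with words of 8 bases, so the word named here was picked for its share in the very genes described and that share supports nothing by itself. The word CTTTAA was in 55 of the 122 lower genes (45.1%), in 22 of 204 higher genes (10.8%) and in 1001 of all 10397 (9.63%). The next word, CTTAAA, which shares 5 bases with it, was in 33.6% of lower and 8.39% of all windows. TATAAA, the TATA box, was in 4.92% of lower and 5.24% of all windows.

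Stretches of the 120 bases before the start are shown for the largest falls that hold the word there, because they let its place and surroundings be read. Where such a stretch lies over more than 30 bases of an annotated exon of GENCODE v29, 30 bases around the word are shown. Sequences are RefSeq's, 5′ to 3′ on the gene's strand, with the word in capitals.
ARPIN: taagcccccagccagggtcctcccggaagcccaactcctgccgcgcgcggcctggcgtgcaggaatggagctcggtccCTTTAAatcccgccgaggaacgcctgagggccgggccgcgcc
TK2: gcgaccgggtctCTTTAAgggccaggcgcc
HAPLN3: gtgcgcgtgttcCTTTAAggggctggtctg
CELSR2: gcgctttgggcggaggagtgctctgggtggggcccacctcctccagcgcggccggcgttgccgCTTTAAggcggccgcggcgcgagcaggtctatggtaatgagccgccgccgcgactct
SNPH: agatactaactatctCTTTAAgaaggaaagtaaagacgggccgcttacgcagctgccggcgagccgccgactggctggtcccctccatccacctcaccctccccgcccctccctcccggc
REEP2: tcccggcctcccCTTTAAgagccgccaccg
ABHD6: cggcacgctgcgcCTTTAAggagtccagct
IKBKE: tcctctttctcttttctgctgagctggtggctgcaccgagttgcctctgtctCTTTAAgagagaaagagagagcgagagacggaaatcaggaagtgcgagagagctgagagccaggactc
MMP15: agcacactggccCTTTAAgagcgcggcggc
VASH1: aaggcgctggccCTTTAAgggggggacgga

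The ARPIN stretch is chr15:89912953-89913072 (minus strand), CELSR2 is chr1:109249419-109249538 (plus strand), SNPH is chr20:1266174-1266293 (plus strand) and IKBKE is chr1:206470356-206470475 (plus strand). The shorter stretches are TK2 at chr16:66550156-66550185 (minus strand), HAPLN3 at chr15:88895593-88895622 (minus strand), REEP2 at chr5:138438985-138439014 (plus strand), ABHD6 at chr3:58237762-58237791 (plus strand), MMP15 at chr16:58025711-58025740 (plus strand) and VASH1 at chr14:76761425-76761454 (plus strand). In all 10 the word reads on the gene's own strand. It begins 17 bases before the start in ABHD6, 31 in MMP15 and VASH1, 42 in ARPIN, 51 in TK2, 57 in CELSR2, 60 in REEP2, 66 in HAPLN3, 68 in IKBKE and 105 in SNPH. REEP2 holds a second copy 10 bases before the start, which the shown stretch leaves out. The start is the first one listed by RefSeq for the gene. The shown stretches of TK2, HAPLN3, ABHD6 and MMP15 lie inside the GENCODE v29 gene model, downstream of its outermost start. The longer words CTTTAAG and CCTTTAA were in 31 and 33 of the 122 lower genes' windows, and in 3.69% and 4.35% of all.

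In the lower genes, 49 of 65 copies of the word (75.4%) were on the gene's strand and 48 (73.8%) began within 120 bases before the start, against 56.5% and 42.8% of 1130 copies over all windows. Of the 20 largest falls with a window, 16 held the word. TBC1D3D, DGLUCY, ABCA2 and TLE2 did not hold it in the first listed window. Most genes with the word did not pass the test: 55 of 1001 were lower, and the median difference of the 1001 was -0.03, against -0.00438 in 9396 genes without it. With every listed start of a gene counted the word was in 61 of the 122 lower genes and in 13.2% of all. Among lower genes of the fit with all BT-549 libraries the share was 82.9% (34 of 41) against 9.91%. Of the 53 lower genes of that fit 52 are among the 196 of the main fit, so this share is not separate support.

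**Figure D3:**
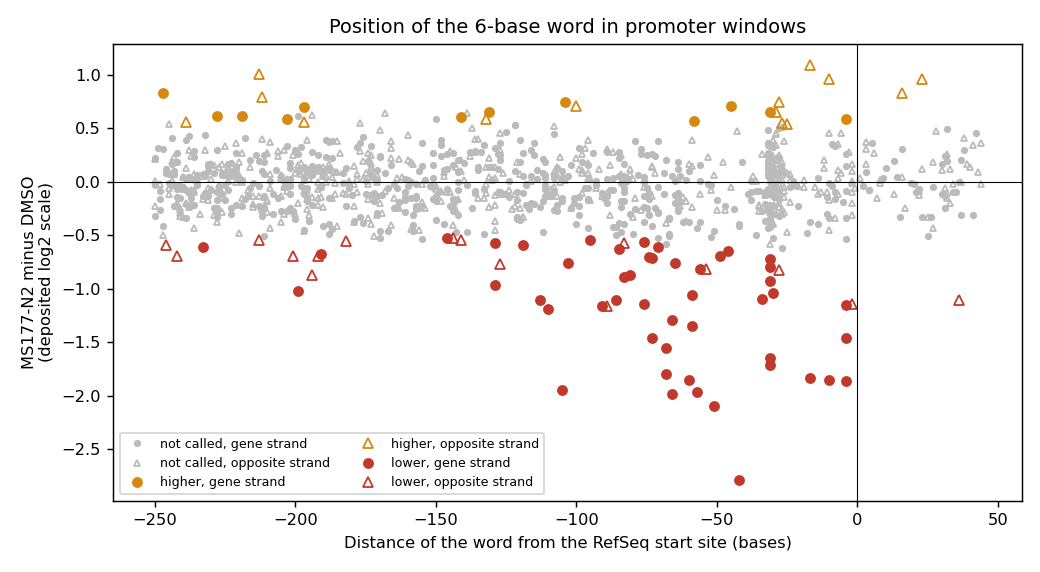
Distance of each copy of CTTTAA or its reverse complement from the RefSeq start site in bases (horizontal axis) against the gene's difference between MS177-N2 and DMSO on the deposited log2 scale (vertical axis). Filled circles read on the gene's strand and open triangles on the other, and colours mark the call. Copies in the lower genes gather within 120 bases before the start, 48 of 65, among many grey copies in genes that did not pass the test.

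The falls were followed in libraries that did not enter this comparison. MS177 was set against the mean of MS177-N1 and C24 in BT-549, a comparison added after the values were seen, in which 2847 of 16086 genes were higher (17.7%) and 3125 lower (19.4%). Together these are 5972, against 3678 without MS177 replicate 2 and 3857 without C24 replicate 1. Of the 196 genes that fell with MS177-N2, 195 were tested and 87 were lower there, with a median of -0.30 against -0.000484 over all genes tested. Below 0 there stood 109 of the 195 falls, beside 50.04% of all genes tested. Of the 55 falls with the word in their window, 46 were lower and the median was -1.85. Of the 109 falls below 0, 48 were among these 55. These 55 are among the falls from which the word was picked, so their share is not separate support for it. ARPIN differed by -4.20 ± 0.13 and IKBKE by -4.60 ± 0.20 (limma adjusted p = 8.16e-06 and 2.18e-05). Of the 295 rises, 291 were tested and 59 were higher, beside 17.7% of all genes, with a median of -0.20. The word was in 13.6% of genes lower in that comparison, 8.89% of those higher and 9.87% of all.

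In T47D-TR, MS177-N2 changed 17 of 11904 genes against DMSO (0.143%; limma on log2 of the normalized count + 1), 16 of them lower. Without MS177-N2 replicate 1 the count was 27 and without replicate 2 it was 40. Of 131 BT-549 falls tested there, 11 were lower and the median difference was -0.31, against -0.00338 over all genes; of 205 BT-549 rises, 1 was higher. ARPIN was at 1187 and 1146 counts with DMSO and 78.9 and 92.8 with MS177-N2 (-3.75 ± 0.16; limma adjusted p = 0.000984). IKBKE was at 326 and 298 and 13.3 and 23.1 (-4.08 ± 0.31; limma adjusted p = 0.00692). TK2, VASH1 and CELSR2 also passed there (limma adjusted p = 0.0495, 0.0437 and 0.0286). The word was in the windows of 11 of the 13 lower genes of T47D-TR that have one (84.6%), against 9.55% of all. Of these 11 genes, 8 are also BT-549 falls, from which the word was picked, so this share is not separate support.

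In T47D, 0 of 14905 genes passed (0%), with 771 at an unadjusted p under 0.05 (limma). Without 1 library the count was 15 to 730, the most without T47D DMSO replicate 1. ARPIN was at 1982 and 663 counts with DMSO and 224 and 237 with MS177-N2 (-2.31 ± 0.72; limma adjusted p = 0.936), and IKBKE at 802 and 314 and 132 and 128. The MS177-N2 libraries were below both DMSO libraries in each gene, but T47D DMSO replicate 2 was far below replicate 1. The median of 177 BT-549 falls was -0.14 in T47D, against -0.000803 over all genes. Of the 50 with the word 48 were below 0, beside 50.3% of all genes, and their median was -0.57. These 50 are among the falls from which the word was picked.

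**Figure D4:**
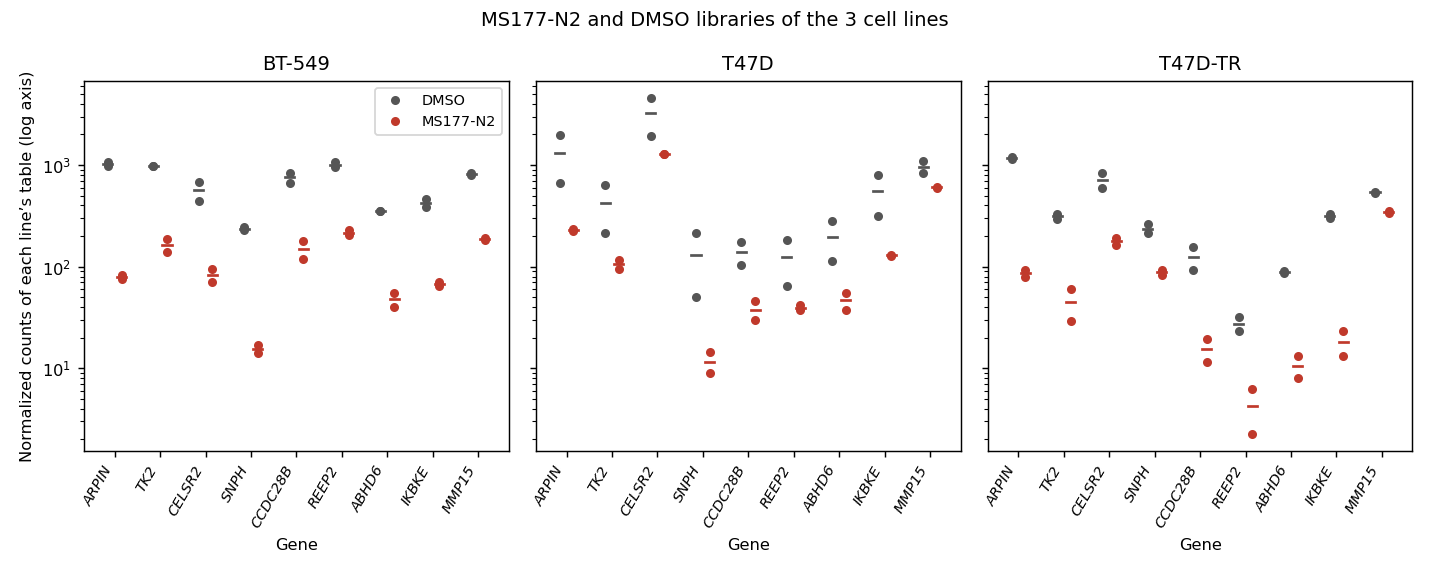
Normalized counts (log axis) of 9 of the largest falls in the MS177-N2 and DMSO libraries of BT-549, T47D and T47D-TR, each line on the scale of its own table. Points are libraries and bars group means (n = 2). MS177-N2 points lie below DMSO points in each of the 9 genes and 3 lines, and the 2 T47D DMSO libraries stand apart.

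VASH1, a vasohibin that trims tyrosine from tubulin, was the other fall in the list of Arp2/3 and actin regulators, of which 2 of 37 tested genes fell and none rose, beside 1.37% of all tested genes that fell. It went from 750.4 and 961 to 207 and 218 counts (-1.65 ± 0.15; limma adjusted p = 1.75e-06). Both also passed with all BT-549 libraries. The subunits of the Arp2/3 complex in the list did not pass. This list was chosen with earlier results of these data known, so its share of falls supports nothing by itself.

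Of 65 tested developmental factors that PRC2 commonly marks, 3 fell and none rose, beside 1.37% of all tested genes that fell. The cardiac homeobox gene NKX2-5 went from 337 and 251 to 68.5 and 76.3 counts, 4.07-fold lower (-1.31 ± 0.15; limma adjusted p = 2.2e-05). The homeobox gene EN2 was at 38.7 and 33 counts with DMSO and 1.09 and 0 with MS177-N2, the latter a single read in 1 of 2 libraries. It passed the filter on low values only through the DMSO libraries, so its call carries no weight for the list. HAND1, a mesoderm factor, went from 868 and 801 to 507 and 524 (-0.61 ± 0.14; limma adjusted p = 0.0227, and 0.0785 with all BT-549 libraries). The groups of these 3 genes did not overlap. EN2 and NKX2-5 also passed with all libraries, and 1 of the 65 genes passed without DMSO replicate 1. The other 62 members did not pass.

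Among the rises, APOE, the lipid-carrying apolipoprotein (chromosome 19, 44905754 to 44909393), went from 217 and 127 to 749 and 869.5 normalized counts, 4.7-fold higher (1.82 ± 0.17; limma adjusted p = 1.9e-06). L1CAM, a neural adhesion molecule (chromosome X, 153861514 to 153886174), went from 669 and 809 to 2886 and 2727, 3.8-fold higher (1.81 ± 0.15; limma adjusted p = 4.9e-07). ARSI, an arylsulfatase, went from 156 and 171 to 557 and 629, 3.62-fold higher. The groups did not overlap in any of them. C24 libraries stood at 362 and 451 counts of APOE and MS177 libraries at 508 and 788, above both DMSO libraries. ARSI was at 277 and 274 with MS177, also above both DMSO libraries, but at 175 and 138 with C24, which overlapped with DMSO.

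NPTXR, a neuronal pentraxin receptor, rose 2.59-fold, from 3259 and 3996 to 9519.9 and 9253 counts, and the complement component C3 2.57-fold, from 1189.8 and 1224 to 3401 and 2809. ZSWIM4, a zinc finger protein, rose 2.74-fold, the ubiquitin ligase HECW1 2.9-fold and FAM83H, which organizes keratin filaments, 2.52-fold. These 8 genes also passed with all BT-549 libraries, with limma adjusted p from 0.00109 for ARSI to 0.0391 for C3. FLNC, an actin crosslinker of muscle, rose 2.73-fold (693 and 958 to 2237 and 2263), but with all libraries its adjusted p was 0.0943 (limma).

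The 6 other large rises are uncertain, because each overlaps or resembles other genes. The readthrough models CHURC1-FNTB and PDCD6-AHRR, and AC002996.1, which overlaps ACAD10 and ALDH2, were at 0 with DMSO and at 75 and 34.6, 38 and 58.6 and 85.9 and 46.1 counts with MS177-N2, at least 18.3-, 16.1- and 22-fold higher against 3 reads per library. AC099329.1, antisense to several genes in a library type that does not keep strand, was at 1.02 and 0 with DMSO and 259.8 and 185 with MS177-N2. These genes at or near 0 with DMSO passed the filter on low values only through the MS177-N2 libraries. The pseudogene TCAF1P1 and AC138811.2, which overlaps RPS15A and ARL6IP1, were 3.32- and 2.82-fold higher. Neither of these, nor CHURC1-FNTB, passed with all BT-549 libraries (limma adjusted p = 0.228, 0.184 and 0.246), and the other 3 were not in that fit.

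Genes of the extracellular matrix rose in larger number than those of any other list examined except the stress response: 7 of 45 tested members rose and none fell, beside 2.05% of all genes that rose, and 16 were higher at an unadjusted p under 0.05 (limma), beside 11.5% of all genes. The list's median was 0.25. Collagen COL1A1 went from 8312 and 9976 to 19843 and 17877 counts, 2.06-fold (1.04 ± 0.15; limma adjusted p = 0.000523), and COL7A1, the anchoring fibril collagen, from 314 and 387 to 775 and 968, 2.49-fold. The laminin chain LAMB3 rose 2.36-fold and fibronectin, FN1, 1.78-fold. With all BT-549 libraries 5 members rose, among them COL1A1, COL7A1 and LAMB3. The count was 3 without MS177-N2 replicate 1 and 12 without DMSO replicate 2. FN1 had an adjusted p of 0.332 with all libraries (limma), and its MS177-N1 libraries, at 8590.1 and 16031, reached from DMSO to MS177-N2 levels.

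Of the 28 tested targets of TGF-beta and its SMAD factors, 3 rose, beside 2.05% of all tested genes. They were COL1A1, LTBP2, which binds latent TGF-beta (1.97-fold), and ACTA2, smooth muscle actin (1.56-fold). COL1A1 alone passed with all libraries, and the count was 1 without DMSO replicate 1 and 1 without MS177-N2 replicate 1. L1CAM was the only one of 20 tested EMT regulators and cadherins that passed. None of 24 tested YAP and TEAD targets did, with 8 higher at an unadjusted p under 0.05 (limma), beside 11.5% of all genes; MYOF, a membrane repair protein, had the smallest p (0.56 ± 0.17; limma adjusted p = 0.08).

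Of 46 tested genes of ATF4 and the integrated stress response, the program that cells run when amino acids or protein folding fail, 8 rose and none fell, beside 2.05% of all genes that rose, and 15 were higher at an unadjusted p under 0.05, beside 11.5% of all genes. GDF15, a stress cytokine, went from 122 and 129 to 282 and 319 counts, 2.39-fold (0.88 ± 0.14; limma adjusted p = 0.000906). The stress factor NUPR1 rose 2.13-fold, CHAC1, which degrades glutathione, 2.14-fold and the folate enzyme ALDH1L2 1.9-fold. MS177 libraries stood far above these, with GDF15 at 27997 and 33830.4 counts. C24 libraries had 226 and 224 counts of GDF15 and MS177-N1 libraries 141 and 136, above both DMSO libraries as well. GDF15, NUPR1 and ALDH1L2 with MS177-N2 did not differ from C24 past the threshold (limma adjusted p = 0.313, 0.63 and 0.683). CHAC1 did (1.37 ± 0.15, limma adjusted p = 0.00342). The median of the list was 0.09. With all BT-549 libraries 3 members rose, GDF15 and CHAC1 among them, and 3 did without DMSO replicate 1 and 3 without MS177-N2 replicate 1. None of 30 tested endoplasmic reticulum chaperones passed (3 at an unadjusted p under 0.05; SEC61B, a translocon subunit, at -0.40 ± 0.16), nor any of 21 heat shock proteins (3; the mitochondrial chaperonin HSPE1 at -0.52 ± 0.16).

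Of 23 tested genes of fatty acid synthesis 5 rose and none fell, beside 2.05% of all tested genes that rose. The desaturase SCD went from 14309.8 and 15244 to 30912 and 24043 counts (1.86-fold, limma adjusted p = 0.00432). The others were FADS2 (1.62-fold), ACACA (1.75-fold), FASN (1.53-fold) and LPIN1 (1.47-fold). Of 31 tested genes of cholesterol synthesis and uptake 4 rose, beside the same 2.05%. Among them were the reductases DHCR7 (1.5-fold) and TM7SF2 (1.69-fold) and the exporter ABCA1 (2.03-fold). No gene of either list passed with all BT-549 libraries (limma adjusted p of SCD 0.0864), and none did without MS177-N2 replicate 1. SCD was at 22373 and 25408 counts with MS177-N1 and 53532 and 40304 with C24, above the DMSO libraries as well.

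In the NF-kB and cytokine list, C3 and the adhesion molecule ICAM1 (1.73-fold) rose and IKBKE fell, 3 of 30 tested. This count and those that follow stand beside 3.42% of all tested genes past the threshold, 2.05% higher and 1.37% lower. The growth factor IGF2 (1.48-fold), its receptor IGF2R (1.55-fold) and PDGFRB (2.02-fold) were the 3 of 34 receptor kinases and ligands that rose; none passed with all libraries, without DMSO replicate 1 or without MS177-N2 replicate 1. CYP1A1, a detoxifying enzyme induced through the aryl hydrocarbon receptor, went from 7.14 and 6.01 to 25 and 27.5 counts. It passed the filter on low values only through the MS177-N2 libraries, so its call carries no weight for the receptor's 11 tested targets. Of the others the amino acid carrier SLC7A5 rose (1.52-fold), but no target passed without DMSO replicate 1, without MS177-N2 replicate 1 or without MS177-N2 replicate 2. Of 26 NRF2 targets the exporter ABCC3 rose (1.78-fold) and the thioredoxin TXN fell (1.64-fold). Single members passed in other lists: ZNF692 among 21 cereblon and cullin ligase genes (1.75-fold higher), ALDOC of glycolysis (1.83-fold higher), GREB1 of the hormone receptor list (2.18-fold higher), the shear-responsive factor KLF2 (2.49-fold lower) and the cell cycle inhibitor CDKN1C (2.03-fold lower). With all BT-549 libraries KLF2 alone of these 5 passed (limma adjusted p = 0.0395), and ZNF692 had 0.0734. When 1 library was left out, ALDOC alone of the 5 passed each time. The histone genes H4C11 (1.96-fold lower) and H4C12 (higher) differ little in sequence from other copies.

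No member passed among 74 cytosolic ribosomal proteins (34 lower and none higher at an unadjusted p under 0.05), 46 nuclear respiratory chain subunits (28 lower), 13 mitochondrially encoded transcripts (3), 43 MYC and ribosome biogenesis genes (8), 29 interferon-stimulated genes (6), 17 MHC class I genes (3), 9 keratins (2), 23 HOX genes (2), 43 lysosome genes (8), 27 BCL2 family and death receptor genes (8), 18 polyamine genes (3) and 23 glucocorticoid and FOXO genes (7), by limma. Over all genes 22.3% stood at that p and 10.8% were lower at it. PSMA2 was the only one of 38 proteasome subunits that passed (1.56-fold lower), with 17 lower at an unadjusted p under 0.05; the count was 9 without DMSO replicate 2. Medians were -0.35 for ribosomal proteins, -0.37 for respiratory chain subunits and -0.30 for proteasome subunits. In the smallest p of each list, the fusion protein RPS27A stood at -0.58 ± 0.17, NDUFB5 at -0.57 ± 0.16, MT-ND3 at -0.53 ± 0.17 and PARP14 at 0.54 ± 0.17 (limma adjusted p = 0.0648, 0.055, 0.0819 and 0.0871).

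The same lists also differed between libraries of 1 group. Ribosomal proteins had a median of -0.40 in DMSO replicate 2 less DMSO replicate 1, and of 0.36 in MS177-N2 replicate 2 less replicate 1. Respiratory chain and proteasome subunits had medians of -0.36 and -0.27 between the 2 DMSO libraries. Transcript length moved with this: in the fifth of genes with the shortest longest transcript the median of MS177-N2 less DMSO was -0.17 and in the fifth with the longest it was 0.16, beside -0.18 and 0.17 for the 2 DMSO libraries. The matrix genes, with a median length of 5543 bases, had medians of 0.25 against DMSO and 0.11 between the DMSO libraries. The calls differed by length too. Among the 2787 genes with a longest transcript of 106 to 1947 bases, 36 were called higher and 76 lower. Among the 2787 genes at 5758 to 205012 bases, 112 were called higher and 20 lower. The part of length in these results was not tested.

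**Figure D5:**
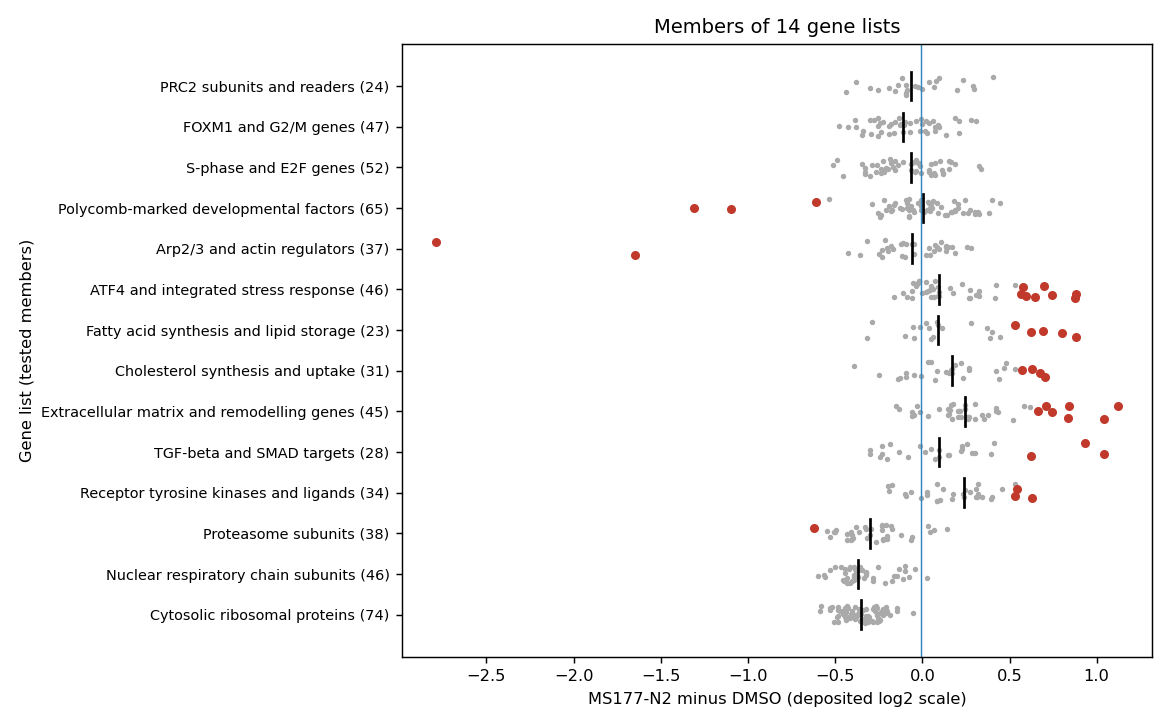
Difference between MS177-N2 and DMSO on the deposited log2 scale for the tested members of 14 gene lists. Red points passed the test, grey points did not, black bars are list medians and the blue line is the median of all tested genes. ARPIN, VASH1, NKX2-5 and EN2 stand far to the left of their lists, and the ribosomal, respiratory chain and proteasome lists lie left of 0 with 1 red point.

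MS177-N2 was compared directly with the 3 other compounds at the same dose and time. Against MS177-N1, 57 of 16329 genes differed (0.349%; 17 higher and 40 lower with MS177-N2), against C24 131 (0.802%; 40 and 91) and against MS177 6079 (37.2%; 3168 and 2911). With p-values adjusted over the 3 pairs together the counts were 256, 420 and 4380 (limma). All 3 share the MS177-N2 libraries. Against MS177-N1 the count fell to 20 without MS177-N2 replicate 1 and to 23 without replicate 2, and against C24 to 30 and 42; in a fit of only the libraries of these 2 compounds C24 gave 451. Against MS177 it was 3831 without MS177-N2 replicate 1 and 3720 without MS177 replicate 2. Without MS177-N1 replicate 1 or 2 the first count was 36 or 33, and without C24 replicate 1 or 2 the second was 67 or 39.

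Against both MS177-N1 and C24 the largest falls were in SNPH, ARPIN, EN2, INPP5J and TLX2. ARPIN differed by -3.58 ± 0.13 (SE) from MS177-N1 and by -3.94 ± 0.13 from C24 on the log2 scale of normalized count + 1 (limma adjusted p over the pairs = 2.45e-06 and 2.45e-06). INPP5J, an inositol phosphatase, was at 8.7 and 7.1 counts with MS177-N2, 149.6 and 152.0 with MS177-N1 and 192.5 and 134.8 with C24. TLX2, a homeobox factor, was at 7.61 and 5.32, 92.0 and 71.5, and 103 and 121. The largest rises against MS177-N1 were in APOE, ARSI, L1CAM, MSI1, an RNA-binding protein of neural progenitors, and FGF19, a growth factor. Against C24 they were in ARSI, the tyrosine enzyme HPD, COMP, a matrix protein, MAMDC2 and AL031777.2. For AL031777.2 the C24 libraries were low, at 29.9 and 32.5 counts. Its MS177-N2 libraries, at 128.3 and 94.9, overlapped with DMSO, at 85.6 and 100.1. APOE differed from MS177-N1 by 2.02 ± 0.32, and from C24 by 1.00 ± 0.32 (interval 0.29 to 1.71), which did not pass.

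EZH2 with MS177-N2 differed from MS177-N1 by -0.10 ± 0.10 (95% interval -0.33 to 0.12) and from C24 by -0.02 ± 0.10 (-0.24 to 0.20), neither past the threshold, so changes within those intervals were not detectable. FOXM1 differed from MS177-N1 by 0.04 ± 0.13 (-0.25 to 0.34) and MYC by -0.15 ± 0.14 (-0.46 to 0.16). SCD differed from C24 by -0.77 ± 0.18 (-1.18 to -0.36; limma adjusted p = 0.118, and 0.0261 over the pairs).

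Against MS177, EZH2 differed by -0.36 ± 0.10 (limma adjusted p = 0.0201, and 0.0521 over the pairs), FOXM1 by 0.87 ± 0.13 and MYC by -1.32 ± 0.14. Of the 10 falls above, TK2 was higher with MS177-N2 than with MS177 by 0.94 ± 0.19 and MMP15 by 1.29 ± 0.13 (limma adjusted p over the pairs = 0.0141 and 0.000348), while ARPIN was higher by 0.44 ± 0.13 (limma adjusted p over the pairs = 0.0764). GDF15 was lower with MS177-N2 by a log2 difference of -6.68 ± 0.13. The other largest differences in this pair were in genes with 0 counts in at least 1 library: THRIL, AC090004.1, AC087721.2, AC100803.3 and AC019257.8, higher with MS177-N2, and AL671762.1, RNA5-8SN1, 5_8S_rRNA and AC011511.4, lower. Several of them, such as THRIL and AC090004.1, each at 0 in 1 of 2 DMSO libraries, differed as much between libraries of 1 group.

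Whether the response to MS177-N2 differs between lines was tested as an interaction. Against T47D 11 of 15146 genes differed (0.0726%) and against T47D-TR 17 of 12666 (0.134%). With the replicate number as a block the counts were 0 (949 genes at an unadjusted p under 0.05, limma) and 2. Without 1 of the BT-549 libraries they were 0 to 51 and 0 to 2, and 0 in both without MS177-N2 replicate 1. MMP15 fell more in BT-549 than in T47D (difference of differences -1.43 ± 0.19 on the log2 scale of normalized count + 1; limma adjusted p = 0.0494): it was at 1093 and 837 counts with DMSO and 600.2 and 602 with MS177-N2 in T47D. INPP5J also fell more (-2.52 ± 0.31), from 1971 and 1274 to 615 and 589.5 counts in T47D. ARPIN had an interaction of -1.36 ± 0.55 with T47D and 0.08 ± 0.22 with T47D-TR (limma adjusted p = 0.435 and 0.918), so no difference between lines was detected for it. Of the largest protein-coding falls, SNPH (-2.44 ± 0.32) and MMP15 (-1.45 ± 0.19) alone passed against T47D-TR. HAPLN3 was not in these fits. Of the largest rises, L1CAM passed against T47D (1.78 ± 0.15) and T47D-TR (1.41 ± 0.19), as did NPTXR (1.33 ± 0.16 and 1.48 ± 0.19). FAM83H passed against T47D only (1.16 ± 0.14), and APOE against neither line.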

How the data were processed

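Polyadenylated RNA of BT-549, T47D and T47D-TR cells was sequenced from a non-directional kit, per the labels' protocols. The submitters' processing notes name RSEM, DESeq and hg38, without versions. The deposited tables, 1 for each compound and line, hold log2 values; the authors' transformation is not given in the sources used here, but the values had the form of a variance-stabilizing transform, which was undone to give normalized counts. In the BT-549 and T47D tables all values of up to 1000 reads were whole reads (within 0.05), so depth is known there. In the T47D-TR tables they were not, so depth is unknown. With 2 libraries per group, the number of libraries limits the precision.

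The comparison with DMSO used limma 3.58.1 in R 4.3.3 (mean trend, robust) on the deposited log2 values, for genes that exceeded the lowest value by over 1 log2 unit (24.3 normalized counts) in 2 or more libraries, with Benjamini-Hochberg adjustment and a threshold of 0.05. Other comparisons used log2(normalized count + 1), for genes that reached 10 counts in 2 or more libraries. A group at 0 was bounded at 3 reads per library. The scripts were tested on simulated data.

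Genes were named by rule: 7 PRC2 and degrader genes always, the 15 largest called changes each way, of each list the called members (the 4 largest where over 5 passed) or else the member of smallest p, the 5 largest each way between compounds and the 4 largest each way between lines. FOXA1 and CD14 were chosen after values were seen. The members and the gene lists were chosen with earlier results of these data known. Gene models were those of GENCODE v29 and promoter windows those of RefSeq (GRCh38.p14). Samples were grouped by their labels, and the alternatives left out 1 library at a time or changed the filter, scaling, pseudocount, trend, tool or block. Of the genes this rule selects, 1 is not reported here.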

Additional observations from a re-analysis of the deposited data

Results flagged for a closer look

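The difference between MS177-N2 and DMSO in BT-549 differed from that in T47D in 11 genes and from that in T47D-TR in 17 (limma interaction, adjusted p under the threshold of 0.05). Values here are differences of differences on the log2 scale of normalized count + 1, positive where BT-549 rose more or fell less.

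Against T47D, AC099329.1 stood at 6.6, BMS1P4-AGAP5 at 5.69, CHURC1-FNTB at 5.5 and AL591806.2 at 2.4. The first 3 of these, which overlap other genes or are readthrough models, were at or near 0 in both BT-549 DMSO libraries. INPP5J stood at -2.52, MMP15 at -1.43 and ABCA2, a lipid transporter, at -1.43. ABCA2 was at 1368 and 1659 counts with DMSO and 577 and 526 with MS177-N2 in BT-549, and at 15895 and 12368 against 13746 and 13871 in T47D.

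Against T47D-TR, NBPF8 stood at 5.02, COL7A1 at 3.1, OAF at 2.41 and ZBED1 at 2.38. NBPF8, a member of a family of near-identical copies, was listed at 0 in both T47D-TR libraries with MS177-N2. COL7A1 rose in BT-549 and was at 27.4 and 49.7 counts with DMSO and 10.1 and 9.78 with MS177-N2 in T47D-TR. The steroid sulfatase STS stood at -5.78, SBF2-AS1 at -4.36, TRIM52-AS1 at -3.72 and the complement protease C1R at -3.27. STS, SBF2-AS1 and TRIM52-AS1 were listed at 0 in both T47D-TR DMSO libraries, and C1R in 1 of them, so these values rest on the T47D-TR libraries.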

How the results depend on the processing

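For MS177-N2 against DMSO the 491 genes became 100 with all BT-549 libraries and between 121 and 1383 when 1 library was left out; the cause was not tested. Other planned settings gave 337 to 507, and none gave a called gene the opposite sign. Same-numbered libraries share only a number: their deviations correlated at -0.504 across genes. The replicate block gave 373 and the crossed pairing, added after seeing the data, 4901.

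Against MS177-N1 leaving out 1 library gave 20 to 36 genes, and the replicate block 47. Against C24 the fit of only the 2 compounds gave 451, the replicate block 83 and leaving out 1 library 30 to 67. Against MS177 leaving out 1 library gave 3720 to 5447, and the replicate block 5234. The interaction with T47D gave 5 genes with a pseudocount of 8, 0 with the replicate block and 0 to 51 without 1 library; that with T47D-TR gave 11, 2 and 0 to 2.

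Comparisons added after seeing the data moved too. MS177 against the mean of MS177-N1 and C24 gave 3678 to 5886 without 1 library (replicate block 4532). MS177-N2 against DMSO gave 50 in T47D with the replicate block and 15 to 730 without 1 library, and 27 and 14 to 40 in T47D-TR. The promoter word was in 82.9% of genes lower in the fit with all BT-549 libraries, which are nearly all lower genes of the main fit as well. A lone library left in a group was assumed to vary like the others. Among named genes no direction reversed; 38 values no longer passed with all BT-549 libraries, 33 with the replicate block and 174 when 1 library was left out. Genes listed at 0 in T47D-TR have no depth behind them.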
